A study of Bos taurus with 8 samples.

Results

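Ubiquitin-specific proteases form the largest family of deubiquitinases, the enzymes that cut ubiquitin from proteins. Ubiquitin is a small protein that is joined in chains to other proteins and marks them for destruction by the proteasome, for sorting between membranes, or for a change of activity, and a deubiquitinase reverses that mark. In early embryos, maternal proteins are cleared through ubiquitin while the embryo's own genome takes over, and several members of the family act on histones, on p53 or on receptors that the blastocyst uses.

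The transcripts of this family were measured in bovine blastocysts made in vitro from oocytes of slaughterhouse ovaries. Zygotes were cultured with 5 mM glucose or with 0.2 mM glucose (control) from day 0 to day 3, were then moved to ordinary culture medium, and were collected as blastocysts 180 h after fertilization. Each group consisted of 4 pools of 10 embryos, from dairy cattle, and both groups were matured, fertilized and cultured in vitro. No embryo developed in vivo was compared here, and a pool hides differences between embryos. A glucose pool and a control pool were hybridised together on 2-colour arrays, once with each dye orientation, which gave 8 arrays for 4 pool pairs, in array sets 047 and 056. The ratio given for a gene is log2(glucose/control), averaged over the 2 arrays of a pair, so that 0 is no difference and 1 is a 2-fold higher signal in the glucose pool. Where ratios follow each other below, they stand in the order of pairs 1 to 4, and ± is the SD over the 4 pairs. Signals are given as log2 fluorescence after normalization, and the signal of one probe cannot be set against that of another. In pools of whole embryos, fewer cells of a type and less RNA per cell cannot be told apart.

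The members were the array's genes whose symbol begins with USP followed by a number, each represented by its brightest probe. There were 43 such genes, on 76 probes, among 15227 named genes on an array of 43794 probes. Of the 43, 42 symbols are current RefSeq symbols, and USP12P1 is listed there as a synonym of USP12. One match, USP6NL, is not a protease: it is a GTPase-activating protein for RAB5 whose name comes from its likeness to USP6. Probes entered the test if their signal stood above that of the negative control spots, in either dye, on 4 or more of the 8 arrays. The brightest probe of 42 members passed, against 84.6% of the named genes. The exception was USP13, a relative of USP5, whose brightest probe stood above those spots for glucose RNA on 2 arrays and for control RNA on 3. In 33 of the 42 tested members (78.6%) the brightest probe exceeded them in every channel of both groups, as it did in 68% of the tested named genes.

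The pools carried the transcripts of blastocysts. The pluripotency factors POU5F1 and NANOG, and KRT8, KRT18 and GATA3, of the trophectoderm, exceeded the negative controls in every channel. CDX2, of the trophectoderm, did so for glucose RNA on 5 arrays and for control RNA on 6, and SOX2 on 7 and 7. For 8 lineage markers the log2 of the summed signal ran from 15.52 to 15.94 in glucose pools and 15.48 to 16.20 in control pools. Their median ratio was 0.07, 0.02, -0.10 and 0.13 in pairs 1 to 4, and 4 had a mean above 0 and 4 below. The sum, in which the brightest markers weigh most, hides larger shifts of single markers. NANOG had ratios of -1.94, 0.54, -0.27 and 0.22. KRT8 had 0.14, -0.28, 0.56 and -1.27, and its 2 arrays of pair 4 gave -2.22 and -0.31. These 2 markers were chosen after their values were seen. All 8 mesenchymal markers listed were also tested. Of these, DCN was above the negative controls for glucose RNA on 5 arrays and for control RNA on 3. DCN thus entered the test through the group in which it read higher. The median ratio of the 8 markers was 1.28, -0.10, 1.61 and -0.07 in pairs 1 to 4. The log2 of their summed signal ran from 11.59 to 15.12 in the glucose pools and from 11.60 to 12.67 in the control pools. For 8 cumulus cell markers the log2 of the summed signal was 10.61 to 11.24 in glucose pools and 10.64 to 11.40 in control pools. AMH exceeded the negative controls in no channel. Of the 4 blood markers, the log2 of the summed signal was 9.41 to 9.92 in glucose pools and 9.35 to 10.03 in control pools. The part of these cell type markers in the ratios of the proteases was not tested.

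No ubiquitin-specific protease gene differed between glucose and control pools by limma's moderated test over the 4 pairs, with Benjamini-Hochberg adjustment over all 34062 tested probes. The adjusted p-values of the 42 members ran from 0.977 to 0.997. The lowest over the whole array was 0.977, so that 0% of the named genes were called. At an unadjusted p under 0.05 the test called 0 of the 42 members, against 2.7% of the named genes (2.09% higher and 0.614% lower with glucose). The mean ratio was above 0 in 20 members and below 0 in 22, whereas it was above 0 in 52.2% of named genes. The members' median ratio was -0.01, with quartiles of -0.06 and 0.05, beside a median of 0.01 for the named genes.

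The intervals also bound the measured ratio of each brightest probe, without adjustment for the number of genes. No member's mean ratio reached 1.5-fold in either direction, against 0.676% of named genes. The 95% confidence interval of the mean lay within 1.5-fold in 36 members (85.7%), against 82.4% of named genes, and within 2-fold in 41 members (97.6%), against 96.4%. The 6 members whose interval passed 1.5-fold were USP5, USP7, USP30, USP32, USP43 and USP50, and USP32 alone passed 2-fold.

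**Figure D1:**
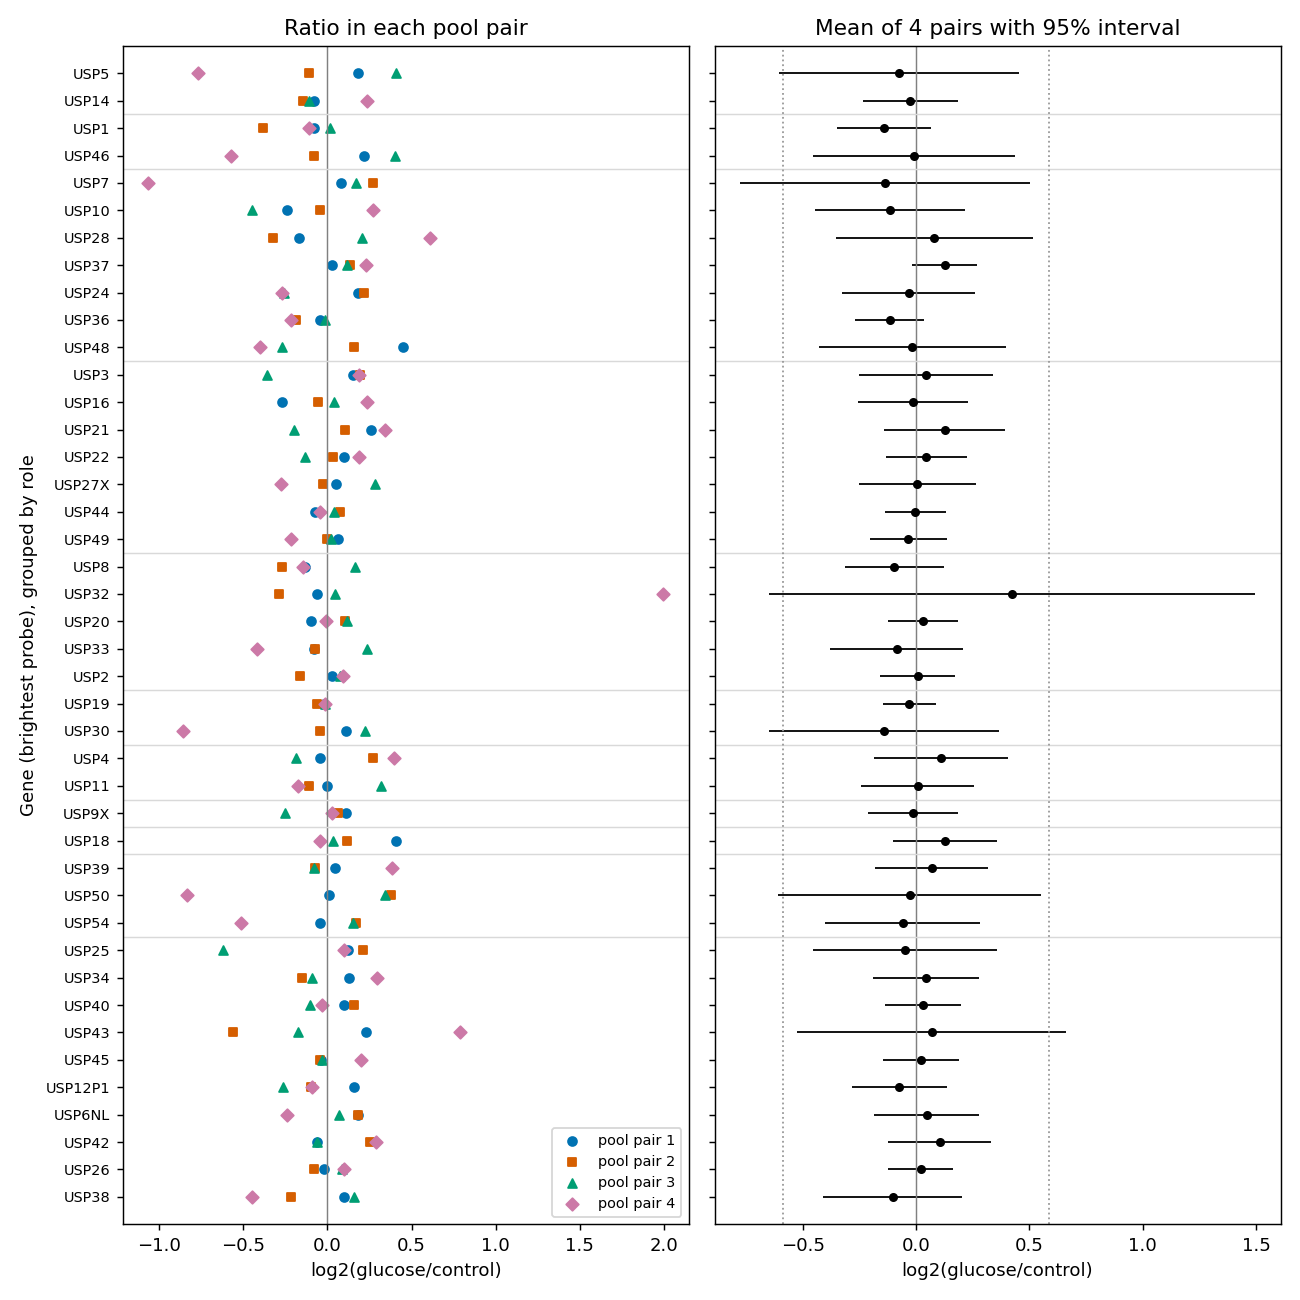
Glucose over control ratios of the 42 tested members, grouped by role. The left panel plots the log2 ratio in each of the 4 pool pairs, and the right panel the mean with its 95% confidence interval, with dotted lines at 1.5-fold. The means run from -0.14 to 0.42, and the points farthest from 0 are USP32 at 2.00 and USP7 at -1.07, both in pair 4.

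The member with the largest mean was USP32, a protease of the Golgi and late endosomes that acts on RAB7 in human cells. Its brightest probe, EMBV3_40095, had log2 signals of 10.86, 10.50, 10.85 and 11.74 in the glucose pools and 10.92, 10.78, 10.81 and 9.75 in the control pools. The glucose pool of pair 4 was the highest of the 8 pools and the control pool of pair 4 the lowest, while the other 6 overlapped. The ratios were -0.06, -0.29, 0.04 and 2.00, with a mean of 0.42 ± 1.06 (SD, n = 4), a 1.34-fold higher signal with glucose (limma, unadjusted p = 0.356, adjusted p = 0.977). In pair 4 the signal was 3.99-fold higher in the glucose pool, and the 2 arrays of that pair gave 1.89 and 2.11. Without pair 4 the mean was -0.10. The other 2 USP32 probes, which exceeded the negative controls in every channel, did not show the pair 4 difference. EMBV3_30616 had ratios of 0.11, 0.42, -0.27 and 0.08, and EMBV3_31096 had 0.10, 0.28, -0.06 and 0.03. The 3 probes thus differed from each other most in pair 4.

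USP7, which removes ubiquitin from MDM2, p53 and DNMT1, had the opposite difference in the same pair. Its brightest probe, EMBV3_02849, had log2 signals of 11.68, 11.73, 11.26 and 10.78 in the glucose pools and 11.60, 11.46, 11.09 and 11.85 in the control pools. The glucose pool of pair 4 was the lowest of the 8 pools and its control pool the highest. The ratios were 0.08, 0.27, 0.17 and -1.07, with a mean of -0.14 ± 0.62 (limma, unadjusted p = 0.607). In pair 4 the signal was 2.09-fold higher in the control pool, and the arrays gave -1.06 and -1.07. Without pair 4 the mean turned to 0.17. The other USP7 probes exceeded the negative controls in every channel as well, and did not share this value. EMBV3_05653 had 0.10, 0.27, 0.03 and 0.23, EMBV3_12795 had -0.23, 0.04, -0.10 and 0.02, and EMBV3_24885 had 0.01, -0.38, -0.46 and 0.68. The means of these probes were 0.16 ± 0.11 (limma, unadjusted p = 0.0537), -0.07 ± 0.12 and -0.04 ± 0.52, so that 1 of the 4 probes had a mean above 0.

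**Figure D2:**
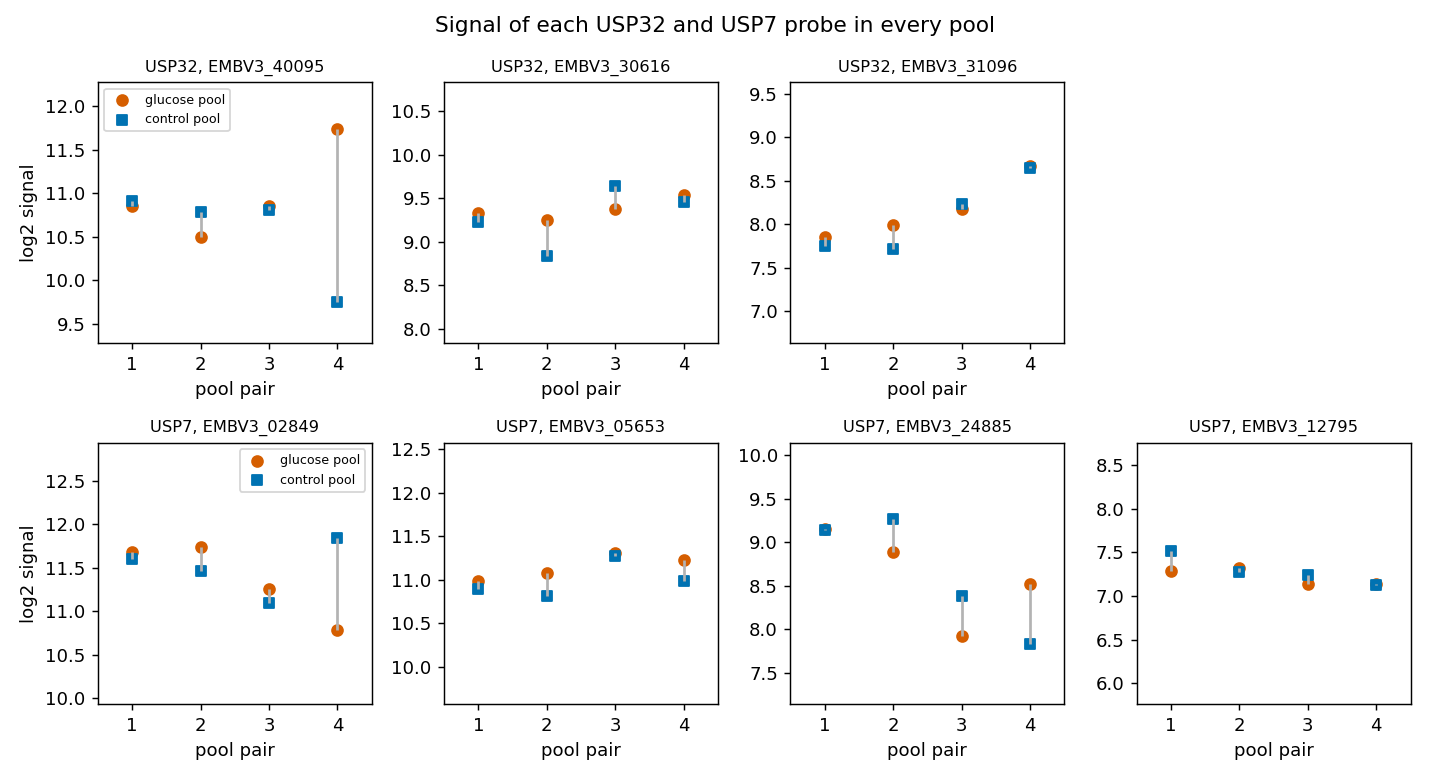
Log2 signal of the glucose and the control pool in each pool pair for the 3 probes of USP32 and the 4 probes of USP7. The brightest USP32 probe reads 11.74 against 9.75 in pair 4, and the brightest USP7 probe 10.78 against 11.85, while the pools lie closer on the other probes.

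USP32 and USP7 were the only members at least 2-fold apart on both arrays of a pair (2 of 42, 4.76%), and 5.12% of named genes met the same rule in at least 1 pair. Pair 4 held more such differences than the others over the whole array, at 2.9% of named genes higher and 1.04% lower with glucose, against 0.489% and 0.0699% in pair 1.

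The proteases that clear free chains or serve the proteasome did not separate the groups. USP5, which takes apart unanchored polyubiquitin, had ratios of 0.18, -0.11, 0.41 and -0.77 (mean -0.07 ± 0.51). USP14, which trims chains on the proteasome itself, had -0.08, -0.14, -0.11 and 0.24 (mean -0.02 ± 0.18). Both means lay below 0, and each gene had values on both sides of 0.

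USP1 and USP46 need the WD-repeat protein WDR48 for full activity, USP1 in the release of ubiquitin from FANCD2 and PCNA. USP1 had ratios of -0.08, -0.38, 0.01 and -0.11 (mean -0.14 ± 0.17). The brightest USP46 probe had 0.22, -0.08, 0.40 and -0.57 (mean -0.01 ± 0.43), whereas its second probe, EMBV3_10284, had -0.24, -0.28, -0.04 and -0.39 (mean -0.23 ± 0.15; limma, unadjusted p = 0.0233, adjusted p = 0.977). The second probe was below 0 in all 4 pairs and the brightest was not. The remaining USP46 probe, EMBV3_37888, had a mean of 0.01 ± 0.06. USP12P1, the array's name for USP12, another WDR48 partner, had a mean of -0.07 ± 0.17. WDR48 itself had 0.18, 0.30, -0.25 and -0.63 (mean -0.10 ± 0.42).

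Of the 7 members that act on histones, 4 had a mean above 0 and 3 below, with a median of 0.01. USP16, which removes ubiquitin from histone H2A, had ratios of -0.27, -0.06, 0.04 and 0.23 (mean -0.01 ± 0.21). USP21, another H2A protease, had 0.26, 0.10, -0.20 and 0.34 (mean 0.13 ± 0.24), and USP3, which also acts on H2A, had 0.15, 0.19, -0.36 and 0.19 (mean 0.04 ± 0.27). Each of the 3 had pairs on both sides of 0. The other 2 USP3 probes gave means of 0.13 ± 0.14 (EMBV3_42037) and -0.03 ± 0.02 (EMBV3_06749).

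USP22, the H2B protease of the SAGA coactivator complex, had ratios of 0.10, 0.03, -0.14 and 0.19 (mean 0.05 ± 0.14). Its log2 signal differed far more between pairs than within them, at 12.74, 12.60, 11.37 and 11.09 in the glucose pools and 12.64, 12.57, 11.50 and 10.90 in the control pools. Pairs 1 and 2 were high and pairs 3 and 4 low in both groups. Each pair was hybridised on its own arrays, so levels of pairs cannot be told apart from levels of arrays. Within each array set, pairs 1 and 2 also had the opposite dye orientation to pairs 3 and 4. The mean of both pools spanned 1.70 over the 4 pairs, whereas the largest difference within a pair was 0.19. A range of pair levels wider than any within-pair difference was seen in 23 of 42 members, against 50.1% of named genes. USP27X, a relative of USP22, had a mean ratio of 0.01 ± 0.23. USP49, another H2B protease, had -0.03 ± 0.12, and USP44, which acts at the spindle checkpoint, had -0.00 ± 0.07.

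Among the 7 members tied to p53, the cell cycle and DNA damage, 2 had a mean above 0 and 5 below, with a median of -0.03. This list held 2 of the 3 members whose ratio had 1 sign in all pairs (3 of 42, 7.14%, against 9.58% of named genes, of which 5.15% were above and 4.43% below 0 throughout). USP37, which stabilises cyclin A in human cells, had log2 signals of 7.27, 7.14, 7.25 and 7.38 with glucose and 7.25, 7.01, 7.13 and 7.14 in controls. It had ratios of 0.03, 0.14, 0.12 and 0.23 and a mean of 0.13 ± 0.08 (95% interval -0.02 to 0.27; limma, unadjusted p = 0.0709, adjusted p = 0.977). The pools of the 2 groups overlapped, and the probe was above the negative spots for glucose RNA on 8 arrays and for control RNA on 6. USP36, a nucleolar protease, had 7.29, 7.28, 7.29 and 7.36 with glucose and 7.34, 7.47, 7.30 and 7.57 in controls. Its ratios were -0.05, -0.18, -0.01 and -0.22, with a mean of -0.12 ± 0.10 (95% interval -0.27 to 0.04; limma, unadjusted p = 0.109). The groups overlapped here too, since the lowest control pools lay below the highest glucose pool.

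The remaining members of that list changed sign between pairs. USP10, which acts on p53 in the cytoplasm and binds G3BP1, had -0.24, -0.04, -0.45 and 0.27 (mean -0.12 ± 0.31). USP28, which counters the ubiquitin ligase FBW7 on MYC, had -0.17, -0.33, 0.21 and 0.61 (mean 0.08 ± 0.42), while its other probes had means of -0.04 ± 0.07 (EMBV3_22430) and -0.08 ± 0.21 (EMBV3_15320). USP24 had 0.18, 0.22, -0.26 and -0.27 (mean -0.03 ± 0.27), with means of 0.03 ± 0.20 and 0.08 ± 0.21 on probes EMBV3_06875 and EMBV3_01207. Thus for both genes the sign depended on the probe. USP48 did so as well: its brightest probe had 0.45, 0.16, -0.27 and -0.40 (mean -0.02 ± 0.39), and EMBV3_10952 had 0.09, 0.16, 0.30 and 0.25 (mean 0.20 ± 0.10; limma, unadjusted p = 0.0184, adjusted p = 0.977). The EMBV3_10952 probe of USP48 and the EMBV3_10284 probe of USP46 were the only 2 of the 70 tested member probes with an unadjusted p under 0.05, against 2.38% of all tested probes.

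The 5 members of membrane traffic had 3 means above 0 and 2 below, with a median of 0.01. Besides USP32, they include USP8, which removes ubiquitin from receptors on endosomes together with STAM proteins. USP8 had ratios of -0.13, -0.27, 0.16 and -0.15 (mean -0.10 ± 0.18). USP33 had -0.08, -0.07, 0.23 and -0.42 (mean -0.08 ± 0.27), and its relative USP20 had a mean of 0.03 ± 0.10. USP2 had a mean of 0.01 ± 0.12. None of these genes kept 1 sign over the 4 pairs.

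Of the proteases anchored in organelle membranes, USP30, of the mitochondrial outer membrane, where it opposes mitophagy, had 0.11, -0.04, 0.22 and -0.86 (mean -0.14 ± 0.49). Its other 2 tested probes had means of 0.07 ± 0.08 (EMBV3_00895) and -0.05 ± 0.14 (EMBV3_01004). The first was above the negative spots for glucose RNA on 4 arrays and for control RNA on 1, and the second on 2 and 2. The first thus entered the test mainly through the group in which it read higher. USP19, of the endoplasmic reticulum, had -0.02, -0.06, -0.02 and -0.02 (mean -0.03 ± 0.02; limma, unadjusted p = 0.554). All 4 values were below 0, but the technical SD between the dye-swapped arrays of a pair, less the dye effect, was 0.09, larger than the mean. The second USP19 probe, EMBV3_38985, had -0.09, 0.02, 0.04 and -0.24 (mean -0.07 ± 0.13), and did not keep 1 sign.

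The paralogues USP4 and USP11, both linked to TGF-beta receptor signalling, had means of 0.11 ± 0.27 and 0.01 ± 0.22. USP18, which removes the ubiquitin-like protein ISG15 and restrains the interferon receptor chain IFNAR2, had 0.41, 0.11, 0.04 and -0.04 (mean 0.13 ± 0.20). Its signal was dim, above the negative spots for glucose RNA on 7 arrays and for control RNA on 5, and a second USP18 probe, EMBV3_02877, had a mean of -0.00 ± 0.05. USP9X, an X-linked protease that acts on many substrates, had 0.11, 0.06, -0.25 and 0.03 (mean -0.01 ± 0.16), and its second probe, EMBV3_31192, had 0.00 ± 0.08.

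Of the members listed as inactive or without a full catalytic triad, USP39, a spliceosome component, had a mean of 0.07 ± 0.22. The activity of the members on this list was not tested. USP50 had 0.01, 0.38, 0.34 and -0.84 (mean -0.03 ± 0.57), and USP54 had -0.04, 0.17, 0.15 and -0.52 (mean -0.06 ± 0.32). USP50 and USP54 were both lower with glucose in pair 4 and higher in pairs 2 and 3.

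The other 10 members had 7 means above 0 and 3 below, with a median of 0.03. USP43 had the widest spread among them, with 0.23, -0.56, -0.18 and 0.79 on its brightest probe (mean 0.07 ± 0.58) and 0.42, -0.54, -0.39 and 0.63 on EMBV3_08350 (mean 0.03 ± 0.58). Here both probes were above 0 in pairs 1 and 4 and below 0 in pairs 2 and 3. USP25, a paralogue of USP28, had 0.12, 0.21, -0.62 and 0.10 (mean -0.05 ± 0.39) and was the only member at least 1.5-fold apart in pair 3 (2.38%, against 3.24% of named genes). USP34, which acts on axin in Wnt signalling, had 0.13, -0.15, -0.09 and 0.29 (mean 0.04 ± 0.20), with -0.04 ± 0.31 and 0.08 ± 0.21 on probes EMBV3_07545 and EMBV3_02591. USP38 had 0.10, -0.22, 0.16 and -0.45 (mean -0.10 ± 0.28), with 0.03 ± 0.22 and -0.07 ± 0.18 on EMBV3_36270 and EMBV3_42138. The means of USP26, USP40, USP42, USP45 and USP6NL lay at 0.02, 0.03, 0.10, 0.02 and 0.05.

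Of the 18 members with at least 2 tested probes, 11 had a tested probe whose mean lay on the other side of 0 from the brightest one, as had 56.8% of such named genes. Among probes that exceeded the negative controls in every channel, this held for 7 of 12 members and for 54.1% of named genes. Which transcript each probe reads was not analysed here.

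Once each gene's constant dye effect was taken out, which cancels in the mean of a dye-swapped pair, the ratios of most members varied more between pool pairs than between the arrays of a pair. The median SD of a member between pairs was 0.215, against a technical SD of 0.0564, which is the spread of each dye-swapped array about the mean of its pair less the dye effect. The SD between pairs was the larger in 40 of 42 members (95.2%, against 87.7% of named genes), and the exceptions were USP19 and USP49. With the dye effect left in, the median technical SD was 0.11, and the SD between pairs was the larger in 34 members (81%, against 68.4% of named genes). The median SD between pairs of the named genes was 0.193. The ratios of the members had an SD of 0.15, 0.198, 0.226 and 0.509 in pairs 1 to 4, and those of the named genes 0.231, 0.216, 0.286 and 0.481. Pair 4 was the widest in both.

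**Figure D3:**
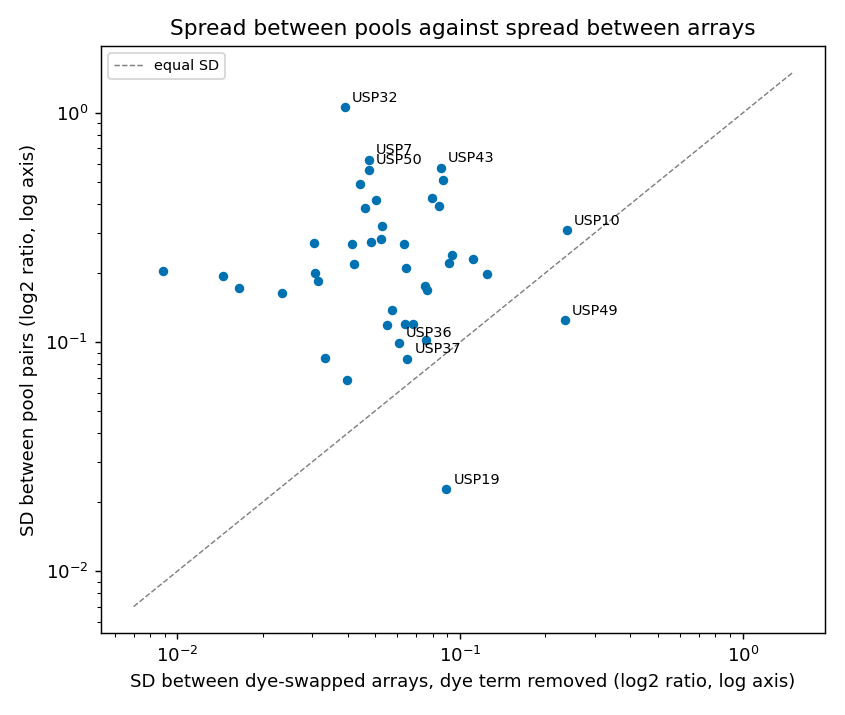
SD of the ratio between the 4 pool pairs against the SD between the dye-swapped arrays of a pair after each gene's constant dye effect was taken out, on log axes, for the 42 tested members. Most points lie above the line of equality, and by this measure 40 of 42 members have the larger SD between pairs.

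Pair 4 held the value farthest from 0 in 25 of 42 members (59.5%), and in 54.8% of named genes. In that pair 7 members were at least 1.5-fold apart (16.7%, against 19.3% of named genes), namely USP5, USP7, USP28, USP30, USP32, USP43 and USP50. In pairs 1 and 2 no member was, against 2.52% and 1.76% of named genes. The members' median ratio was 0.04, -0.04, 0.03 and -0.02 in pairs 1 to 4, with 24, 18, 23 and 19 of 42 members above 0. In pairs 1 to 3, 10 members had 1 sign (23.8%, against 25.5% of named genes). Over all pairs, 21 members had 2 ratios on each side of 0 (50%, against 39.4% of named genes), and 10 had 3 of 4 above 0 (23.8%, against 24.9%). Ratios above 0 in pairs 1 and 3 and below 0 in pairs 2 and 4 were found in 6 members (14.3%, against 7.67% of named genes), namely USP5, USP27X, USP30, USP38, USP46 and USP49. The opposite order was found in USP4 and USP42 (4.76%, against 7.18%). The mesenchymal markers had their higher medians in pairs 1 and 3, as given above, and their part in these signs was not tested.

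**Figure D4:**
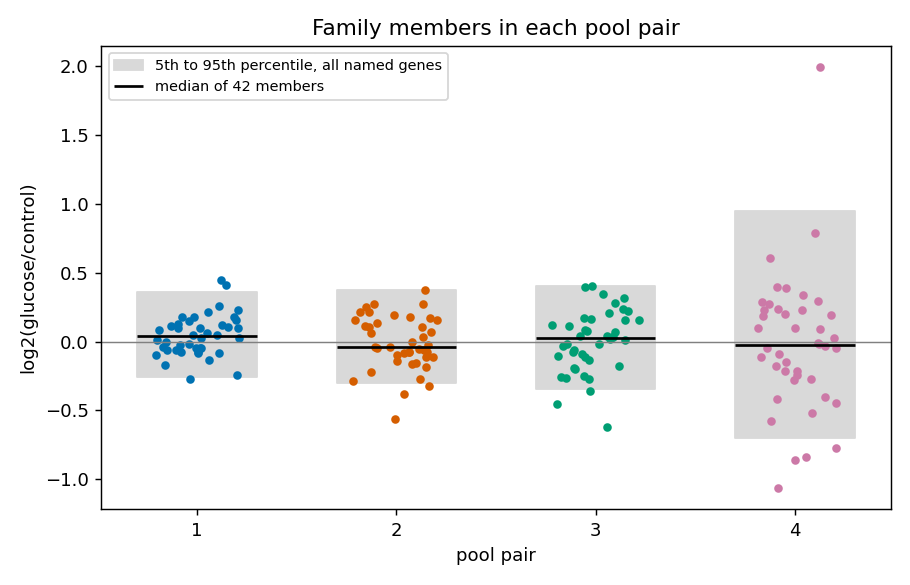
Log2 ratios of the 42 tested members in each pool pair, with the range from the 5th to the 95th percentile of the named genes shaded and the members' median marked. The medians lie between -0.04 and 0.04, and the members' values spread most in pair 4, from -1.07 to 2.00.

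Among genes that work with the family or beside it, none passed the adjusted threshold in the same fit. No probe of the whole array did (lowest adjusted p = 0.977 in limma's test), so this does not characterise these lists. Of 9 tested cofactors, 4 had a mean above 0 and 5 below, with a median of -0.01. STAM2, the endosomal partner of USP8, had -0.17 ± 0.13 (limma, unadjusted p = 0.0529), GMPS, a partner of USP7, had 0.29 ± 0.57, and WDR20, a partner of USP12 and USP46, had 0.10 ± 0.28. Of 25 tested deubiquitinases of other families, 16 had a mean above 0 and 9 below, with a median of 0.07. UCHL1 had 1.33, 0.43, 0.11 and 0.20 (mean 0.52 ± 0.56; limma, unadjusted p = 0.0674), above 0 in all 4 pairs and farthest from 0 in pair 1. In that list 4 of the 25 genes kept 1 sign over the pairs, beside 9.58% of named genes. OTUD7B had a mean of 0.11 ± 0.06 and OTUD3 a mean of -0.24 ± 0.34.

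Of the 5 tested activating enzymes that load ubiquitin and its relatives, 3 had a mean above 0 and 2 below. UBA3, of the NEDD8 pathway, had 0.18 ± 0.17, UBA7, which activates ISG15, had 0.39 ± 0.44, and UBA6 had -0.19 ± 0.35. In the ISG15 system that USP18 opposes, 3 of 4 tested genes had a mean above 0, with a median of 0.17. ISG15 had 0.62, -0.05, 0.11 and 0.13 (mean 0.20 ± 0.29), and the ligase HERC5 had 0.14 ± 0.73. The ISG15 probe was above the negative spots for glucose RNA on 5 arrays and for control RNA on 3. ISG15 thus entered the test through the group in which it read higher. Of 5 tested SENP proteases, which act on SUMO or NEDD8, 4 had a mean below 0, with SENP6 at -0.23 ± 0.41, SENP7 at -0.09 ± 0.18 and SENP3 at -0.18 ± 0.73. No gene of these lists had an unadjusted p under 0.05.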

How the data were processed

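Total RNA of 4 glucose and 4 control pools was amplified, labelled with Cy3 or Cy5 and hybridised to 8 arrays, per the labels' protocols. The authors deposited scanner tables of raw spot intensity with local background, and a table of normalized values whose scale is not stated. That deposited table was treated as a score: the values have medians of 0.998 to 1 per array and, turned back to a log2 ratio, correlated with the scanner ratios at r = 0.968 to 0.996. It served as an alternative. Tool use of limma is named per the submitters' processing notes, without a version.

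Mean intensities were corrected by normexp (offset 50) and loess within arrays in limma 3.58.1 (R 4.3.3), and control spots had weight 0. Ratios on the log2 scale were computed from the deposited intensities, turned to glucose over control, and averaged over the 2 arrays of the same number. The background limit was 2 SD over the mean of the 153 negative control spots of an array and dye (those over 5 MAD above their median left out), to be passed in either dye on 4 or more arrays. lmFit and eBayes tested each ratio against 0, with Benjamini-Hochberg adjustment over 34062 probes. Signals per pool are from loess and Aquantile. Between 69.1% and 82.2% of probes exceeded the negative controls per array. The number of pool pairs, 4, limits the precision.

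That equal numbers mark the same pools was checked in the data, since the labels do not say it: after removing the dye effect, arrays of 1 number correlated at r = 0.727 to 0.91, and arrays of different numbers at 0.215 at most. Before it was removed, arrays of 1 number correlated at -0.044, -0.166, 0.152 and 0.556 for numbers 1 to 4. The p-values measure only the spread between these pools. All members were named; full values were given for USP32, for members with an unadjusted p under 0.05, 1 sign in all pairs, a 2-fold difference on both arrays of a pair, or a second probe on the other side of 0. From each list of cofactors and of other ubiquitin, ISG15 or SUMO genes, the 3 genes of lowest p were named. Genes of the cell type marker lists were not named by that rule. Other pair values were chosen after they were seen. The members and lists were chosen with earlier results of these data known. The fit was tested on simulated data. Alternatives covered background, centring, filter, dye and block terms, array set, weights and pools left out.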

Additional observations from a re-analysis of the deposited data

Results flagged for a closer look

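In 6 of 44 groups of 4 pool pairs examined (the 42 members' ratios, their median and their SD), 1 pair stood far from the other 3: its gap to the nearest, as a share of the whole range, was over Dixon's 95% critical value for 4 values. Chance gives about 1 such group in 20, and 8.53% of the named genes met the same rule. All 6 were single members (14.3% of 42). The USP32 ratio in pair 4 was 2 and the USP7 ratio in pair 4 was -1.07. The USP45 ratio in pair 4 was 0.201. In pair 3 the USP25 ratio was -0.624 and the USP3 ratio was -0.361. The USP19 ratio in pair 2 was -0.0628, a value smaller than the SD of 0.0894 between its dye-swapped arrays. Thus 3 of the 6 lay in pair 4, 2 in pair 3 and 1 in pair 2.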

How the results depend on the processing

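Under all 20 alternatives, 0 of the members passed the adjusted threshold in limma's test, and 0 of the named genes did. The array number was also used as a replicate block beside a dye term, which uses the pairing. Then 0 members had an unadjusted p under 0.05, against 4.37% of named genes, and the lowest adjusted p over all probes was 0.351. Without the block, 8 arrays with a dye term gave 2 of 42 members under that unadjusted limit (USP36 and USP37), against 8.77% of named genes. Arrays of the same pools then count as separate samples. Array weights gave 1 (USP18), against 7.65% of named genes. Leaving out each pair in turn gave 0 to 2, against 1.63% to 6.98% of named genes. The members with 1 sign in all pairs numbered 1 with median centring, against 6.63% of named genes. They numbered 1 to 3 over the alternatives that keep all pairs and give a value per pair, against 6.63% to 10.2%. Over the 3 pairs left when pair 1, 2, 3 or 4 was dropped, 4, 4, 12 and 10 of 42 members had 1 sign. The shares of named genes were then 18.6%, 18.66%, 26.51% and 25.55%. The median ratio of the members was 0.0398 with median spot intensity. Members 2-fold apart in a pair numbered 0 without pair 4, 2 without any other pair, and 1 each without background correction and with median centring. The shares of named genes under these settings are not given here. In the main fit 5.12% of named genes met this rule in at least 1 pair. In pair 4 alone, 2.9% met it higher and 1.04% lower with glucose. USP32 had a mean of 0.03 with array weights, and -0.10 without pair 4. The causes were not tested. Dim probes, such as those of USP18, USP21 and USP40, limit what can be said of small differences.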

Other observations

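Besides USP22, pair levels (the mean signal of both pools of a pair) ranged widely in USP24, at 9.01, 9.29, 9.80 and 10.05, and in USP38, at 9.32, 9.26, 10.05 and 10.16. Both were chosen after their values were seen. For USP24 and USP38, pairs 3 and 4 were the high ones, the reverse of USP22. As for USP22, these levels cannot be told apart from differences between the arrays of the pairs.

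Vimentin (VIM), a mesenchymal marker, had ratios of 2.26, 0.30, 2.84 and -0.12 in pairs 1 to 4. CYP11A1, a steroidogenic marker of granulosa cells, had -0.21, -0.03, -0.22 and -0.57 (mean -0.26 ± 0.22; limma, unadjusted p = 0.048). It was named as the only gene of that list with an unadjusted p under 0.05, and 5 of the 7 tested genes of the list had a mean above 0, with a median of 0.14. The sign pattern shared by 6 members over the pairs was looked for after the values were seen.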
